A study of Mus musculus with 13 samples.

Results

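The 8 genes described here carry or control the passage of dietary iron through the duodenal enterocyte: Cybrd1, Slc11a2, Slc40a1, Heph, Tfrc, Fth1, Hmox1 and Hfe. They were taken by name from the 12393 genes that the arrays measured through a probe set with a single gene symbol, and all 8 were present, through 15 probe sets. Each gene was read from its brightest probe set on average, and any others served as a check. Total RNA of mouse duodenum, the segment where most iron is absorbed, had been hybridised to 13 Affymetrix arrays, and each value below is a log2 level after robust multi-array averaging (RMA), so a difference of 1 is a doubling. The mice carried a K-Ras mutation (called ViRas in the labels) or were wild type, on a mixed strain background. They were fed a high-fat diet with butyrate (3 mutant arrays, 1 wild-type array), a high-fat diet (2 mutant, 2 wild-type) or a normal diet (3 mutant, 2 wild-type). Diets began after 5 weeks of age and lasted 22 weeks. The labels do not say which promoter drives the mutation. The mutated gene's own probe sets were not analysed here, so the genotype labels were not checked against it.

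Iron reaches the enterocyte from food mostly in its oxidised form. Cybrd1, a ferric reductase of the brush border, reduces it, and Slc11a2 (DMT1) carries it into the cell. Inside, it is stored in ferritin, of which Fth1 is the heavy chain, or it leaves at the basal side through Slc40a1 (ferroportin), helped by the ferroxidase Heph. Tfrc, the transferrin receptor, takes up iron from blood, Hfe binds that receptor and takes part in systemic iron sensing, and Hmox1 releases iron from heme. In mouse intestine, low iron or low oxygen stabilises the hypoxia-inducible factor encoded by Epas1, which is known to raise transcription of Cybrd1, Slc11a2 and Slc40a1. In low iron the iron regulatory proteins stabilise Tfrc mRNA.

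The largest differences were in the apical uptake pair on the high-fat diet. Cybrd1 rose 20.04-fold and Slc11a2 18.7-fold in mutants on the high-fat diet against mutants on the normal diet, and both fell when butyrate was in the high-fat food. Slc40a1 rose 2.25-fold and Hfe fell 2.05-fold in mutants on the high-fat diet. Heph, Fth1 and Hmox1 passed no test on the full set of arrays.

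Windows of the 250 bases before an annotated transcript start were available for 4 of the 8 genes (Cybrd1, Tfrc, Fth1 and Hfe; RefSeq, mouse GRCm38.p6). They were searched for ACGTG and GCGTG, the cores of the hypoxia response element, on both strands. The Cybrd1 window is shown because this gene moved most, and the Tfrc window because that gene differed by genotype. Capitals mark GCGTG, which reads CACGC where it lies on the other strand. In the third sequence they mark ACGTG. All sequences are from the plus strand, on which both genes lie.
Cybrd1 chr2:71117804-71118053: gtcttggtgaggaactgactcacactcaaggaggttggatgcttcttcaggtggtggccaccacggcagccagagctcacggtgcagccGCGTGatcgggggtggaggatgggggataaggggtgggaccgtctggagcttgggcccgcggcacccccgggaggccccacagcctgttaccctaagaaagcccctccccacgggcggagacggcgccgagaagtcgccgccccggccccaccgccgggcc
Tfrc chr16:32608646-32608895: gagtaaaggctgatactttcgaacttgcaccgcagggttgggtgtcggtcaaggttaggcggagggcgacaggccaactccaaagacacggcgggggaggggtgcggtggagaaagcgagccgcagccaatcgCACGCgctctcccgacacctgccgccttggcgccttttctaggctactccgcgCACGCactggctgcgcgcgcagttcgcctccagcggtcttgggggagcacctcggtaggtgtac
Tfrc, 30 bases around the ACGTG of a later start's window, chr16:32608882-32608911: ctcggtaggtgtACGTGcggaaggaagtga
The Cybrd1 window held 1 GCGTG, 161 to 157 bases before the start, and no ACGTG. The first Tfrc window held 2 GCGTG on the minus strand. The window of the later Tfrc start held 1 ACGTG, 228 to 224 bases before that start, and 2 GCGTG. The Hfe window held neither, and of the 2 Fth1 windows 1 held a GCGTG. Over all 32851 windows of the same length, 16.6% held ACGTG, 28.2% GCGTG and 38.6% either one, so a match of this kind is common. A match is a description of the letters and says nothing of binding.

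As a check of the tissue, 9 enterocyte genes were all among the most highly expressed on the arrays, at percentile 98.5 or above, with mean log2 levels from 11.8 (Anpep) to 14.12 (Apoa1). The 3 ileum genes had mean levels of 3.35 for Fabp6, 2.15 for Slc10a2 and 5.41 for Osr2, at percentiles 8.7, 0 and 34.1. The amount of other tissue differed between samples: the mean level of 12 acinar pancreas genes lay between 6.17 and 13.54 and that of 5 Brunner gland and stomach genes between 5.92 and 12.05 on single arrays. The array identifiers in the labels are numbered differently for each diet, and the labels do not say what the numbers mark. Whatever they mark cannot be told apart from diet. Array medians lay between 6.04 and 6.14. In bulk tissue, fewer cells of a type and less RNA per cell cannot be told apart.

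**Figure D1:**
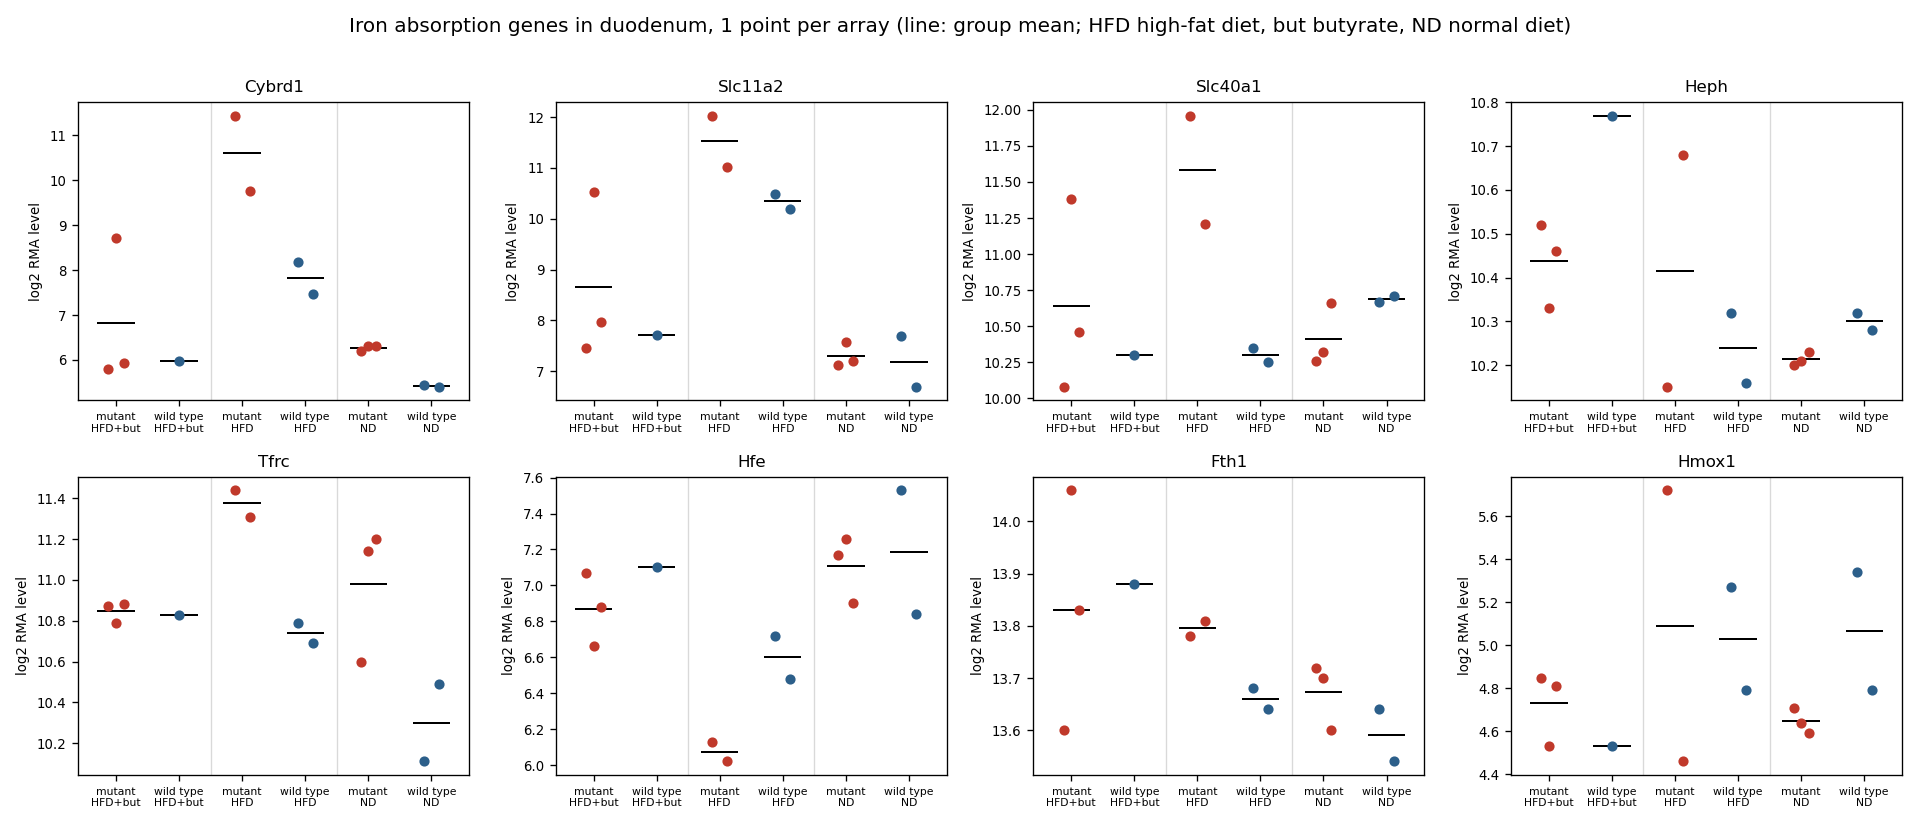
Log2 RMA level (vertical axis, a separate range per gene) of the 8 iron absorption genes in the 6 groups, with 1 point per array, mutant arrays in red, wild-type arrays in blue and a line at each group mean. Cybrd1 and Slc11a2 are highest on the 4 high-fat arrays and on 1 mutant array with butyrate, at 8.72 and 10.53.

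The first question was what the high-fat diet did to the uptake genes in mutants. Cybrd1 stood at 11.44 and 9.76 in mutants on the high-fat diet, against 6.21, 6.30 and 6.32 in mutants on the normal diet. Both high-fat arrays lay far above all 3 normal-diet arrays, which were nearly equal. The difference was 4.32 ± 0.73 on the log2 scale (SE, 95% interval 2.71 to 5.94, adjusted p = 0.00294). Slc11a2 stood at 12.03 and 11.02 in mutants on the high-fat diet, against 7.12, 7.57 and 7.20 in mutants on the normal diet. Again the groups did not overlap, and the difference was 4.22 ± 0.71 (adjusted p = 0.00273). Both calls held in every one of the 13 fits that each left out 1 array, with adjusted p at most 0.0385 for Cybrd1 and 0.0345 for Slc11a2.

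The other 2 probe sets of Slc11a2 also rose in mutants on the high-fat diet, by 3.03 ± 0.46 and 1.12 ± 0.21 in a fit over all probe sets (adjusted p = 0.00104 and 0.00328). All 3 sets moved in one direction, by unequal amounts. The sources used here do not give which transcript each set reads. Slc11a2 transcripts with and without an iron-responsive element at the 3′ end are known in mouse.

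At the basal side the exporter Slc40a1 stood at 11.96 and 11.21 in mutants on the high-fat diet, against 10.26, 10.32 and 10.66 in mutants on the normal diet. The arrays did not overlap, and the difference was 1.17 ± 0.32 (adjusted p = 0.0266). Its second probe set rose by 1.75 ± 0.48 (adjusted p = 0.0232 over all probe sets). The call on the main probe set was lost without mutant high-fat array 1 (0.80, adjusted p = 0.225), without mutant normal-diet array 1 (adjusted p = 0.0832) and without mutant normal-diet array 2 (adjusted p = 0.0734). Heph, its ferroxidase partner, stood at 10.15 and 10.68 in mutants on the high-fat diet, against 10.20 to 10.23 in mutants on the normal diet. The high-fat arrays lay on either side of the normal-diet arrays, and the difference of 0.20 ± 0.13 did not pass (adjusted p = 0.343).

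Hfe went the other way. It stood at 6.13 and 6.02 in mutants on the high-fat diet, against 7.17, 7.26 and 6.90 in mutants on the normal diet. No arrays overlapped, and Hfe fell by 1.04 ± 0.20 on the log2 scale (adjusted p = 0.0058). The second Hfe probe set read between 3.68 and 4.27 on all 13 arrays, near the low end of the scale, and showed no such shift. When the mean of both sets stood for the gene, the Hfe difference was -0.51 ± 0.17 and the call was lost (adjusted p = 0.0575).

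Tfrc depended on the probe set. The main one stood at 11.44 and 11.31 in mutants on the high-fat diet, against 10.60, 11.14 and 11.20 in mutants on the normal diet, a difference of 0.40 ± 0.17 that did not pass (adjusted p = 0.127). The other 2 sets, which read lower levels, rose by 1.30 ± 0.27 and 1.35 ± 0.18 (adjusted p = 0.0055 and 0.000439 over all probe sets). The array also carries 3 control probe sets for the 5′ end, middle and 3′ end of this transcript. Their mean levels on the high-fat diet in mutants were 3.98, 3.70 and 6.81, against 2.93, 2.71 and 5.50 on the normal diet in mutants. All 6 probe sets of Tfrc were thus higher on the high-fat diet in mutants, by between 0.40 and 1.35. Several of them read near the low end of the scale on the 13 arrays. The set that rose by 1.35 read 3.51 to 5.25, the 5′ control set 2.75 to 4.08 and the middle control set 2.51 to 3.92.

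Fth1 and Hmox1 showed no called difference. Fth1 was among the highest levels on the array, at 13.78 and 13.81 in mutants on the high-fat diet and 13.60 to 13.72 in mutants on the normal diet (difference 0.13 ± 0.11, 95% interval -0.12 to 0.37, adjusted p = 0.497). Ferritin is known to be controlled mainly in translation, which an array of RNA levels does not show. Hmox1 was low, at 5.72 and 4.46 in mutants on the high-fat diet and 4.59 to 4.71 in mutants on the normal diet. One high-fat array lay above and the other below the normal-diet arrays (difference 0.44 ± 0.30, adjusted p = 0.358).

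Of the 8 genes, 3 rose and 1 fell in mutants on the high-fat diet. Of all 12393 genes tested, 951 rose and 1246 fell, which is 17.7% called in this comparison. The median difference was 0.42 over the 8 genes and -0.02 over all genes. With 8 genes the count is a description.

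**Figure D2:**
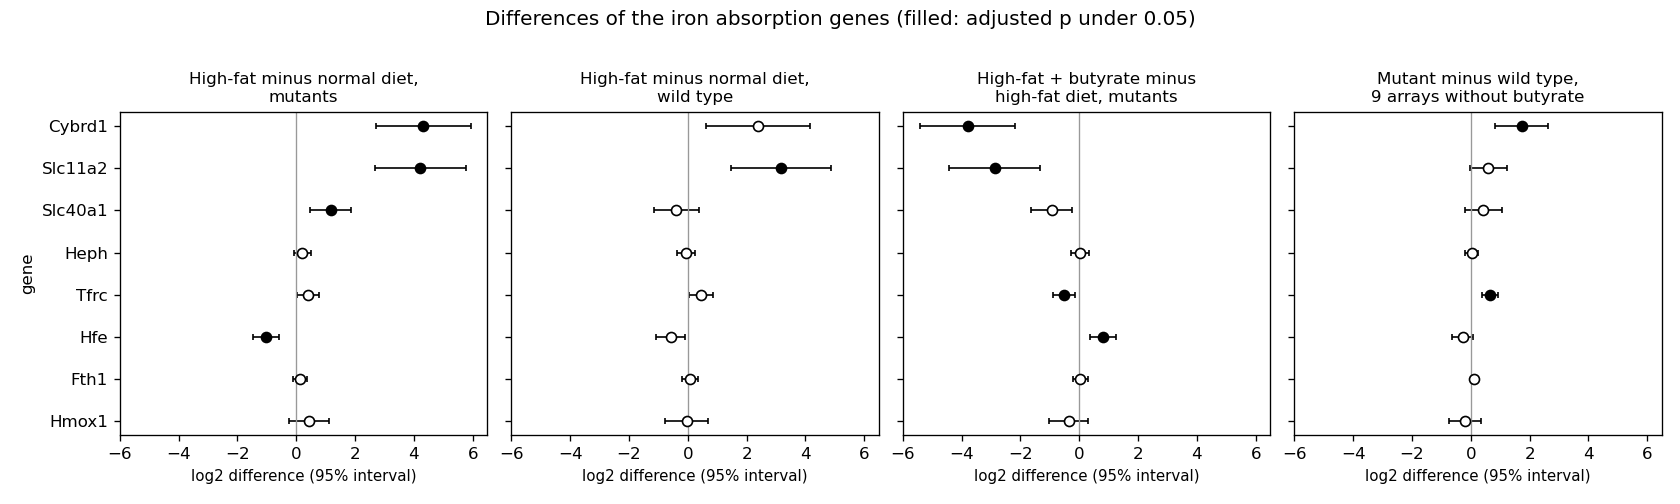
Log2 difference (horizontal axis) of each of the 8 genes in 4 comparisons, with 95% intervals from limma; filled points passed the adjusted threshold. Cybrd1 and Slc11a2 stand at 4.32 and 4.22 for the high-fat diet in mutants and at -3.79 and -2.87 for added butyrate.

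In wild-type mice the same diets gave a similar order for the uptake genes. Slc11a2 stood at 10.49 and 10.20 in wild type on the high-fat diet, against 7.69 and 6.69 in wild type on the normal diet. The arrays did not overlap, and Slc11a2 rose by 3.16 ± 0.77, which is 8.95-fold (95% interval 1.46 to 4.86 on the log2 scale, adjusted p = 0.0255). The call was lost without either wild-type high-fat array or without wild-type normal-diet array 2, with an adjusted p of up to 0.12. The other 2 probe sets of Slc11a2 differed by 1.56 and 0.41 and did not pass (adjusted p = 0.0609 and 0.267).

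Cybrd1 stood at 8.17 and 7.47 in wild type on the high-fat diet, against 5.45 and 5.40 in wild type on the normal diet. The arrays were well apart, but the difference of 2.39 ± 0.80 did not pass (5.25-fold, adjusted p = 0.0818). Its standard error pools the spread of all groups, and the 3 mutant arrays with butyrate spread most. Without mutant butyrate array 2 the same difference had a standard error of 0.41 and an adjusted p of 0.00597 in limma. That array was picked because it stood apart from its group, so a smaller standard error had to follow. This fit is therefore no further support for the difference.

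Slc40a1 stood at 10.35 and 10.25 in wild type on the high-fat diet, against 10.67 and 10.71 in wild type on the normal diet. The high-fat arrays were the lower ones here, by 0.39 ± 0.35 (adjusted p = 0.523). Tfrc differed by 0.44 ± 0.18 (adjusted p = 0.145), although 1 of its other probe sets passed over all probe sets (0.72 ± 0.20, adjusted p = 0.0313). Hfe differed by -0.58 ± 0.22 (adjusted p = 0.117), and Heph, Fth1 and Hmox1 by -0.06, 0.07 and -0.03. Of the 8 genes 1 passed in wild type, where 11.0% of all genes were called.

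Whether the diet acted differently by genotype was tested as the genotype difference on the high-fat diet minus that on the normal diet. None of the 8 genes passed, and 0.00807% of all genes did (1 gene). At an unadjusted limma p under 0.05 there were 621 genes in all. Slc40a1 was the member among them, with a difference of 1.56 ± 0.47 (adjusted p = 0.915). Cybrd1 gave 1.93 ± 1.09 (95% interval -0.46 to 4.33) and Slc11a2 1.06 ± 1.05 (95% interval -1.24 to 3.37), so neither equal nor unequal diet effects in the 2 genotypes are shown for them.

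Markers that moved with the diet were measured beside these genes. The mean level of 9 enterocyte genes was 13.05 and 13.14 in mutants on the high-fat diet, against 12.61 to 12.83 in mutants on the normal diet, and 13.15 and 13.12 in wild type on the high-fat diet, against 12.93 and 12.62 in wild type on the normal diet. Within that list the retinol-binding protein gene Rbp2 and the lipid transfer gene Mttp rose in both genotypes. Of 4 genes that mark position in the duodenum, the transcription factor Gata4 rose, by 0.84 in mutants and by 1.02 in wild type, and Pdx1, Cck and Sct did not pass. The mean of these 4 genes was 8.75 and 8.10 in mutants on the high-fat diet, against 8.13 to 8.31 on the normal diet. In wild type it was 8.41 and 8.48 on the high-fat diet, against 8.13 and 8.07 on the normal diet. The mean of the 3 ileum genes was 3.90 and 3.90 in mutants on the high-fat diet, against 3.33 to 3.57 on the normal diet. In wild type the ileum mean was 3.79 and 4.19 on the high-fat diet, against 3.75 and 3.52 on the normal diet. The mean of 4 erythroid genes, of 9 listed, was 5.01 on mutant high-fat array 1, against 3.83 to 4.34 on the other 12 arrays. Over all 13 arrays the globin gene Hba-a1 read only 3.39 to 3.88 and Epb42 3.14 to 3.93. Alas2 reached 6.44 and Slc4a1 6.42, so the higher mean came from these and not from the globin gene. Mutant high-fat array 1 also had the highest Cybrd1, Slc11a2, Slc40a1, Tfrc and Hmox1 of the 13, and none of the 4 erythroid genes was called. The part of these shifts in the result was not tested. The acinar pancreas genes stood at 11.21 and 6.30 in mutants on the high-fat diet and between 6.81 and 13.54 in mutants on the normal diet, with no genes called. With their mean as a term, the Cybrd1 difference in mutants was 4.73 and that of Slc11a2 4.45, whereas the wild-type Slc11a2 difference was 2.81 and lost its call (adjusted p = 0.064).

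The next question was what butyrate, a short-chain fatty acid that colon bacteria make from fibre, did when added to the high-fat diet. Cybrd1 stood at 5.79, 8.72 and 5.93 in mutants with butyrate, against 11.44 and 9.76 in mutants on the high-fat diet alone. All 3 arrays with butyrate lay below both without it, though array 2 stayed about 3 log2 units above its companions. Cybrd1 fell by 3.79 ± 0.73 on the log2 scale (adjusted p = 0.00465). Slc11a2 stood at 7.46, 10.53 and 7.96 in mutants with butyrate, against 12.03 and 11.02 in mutants on the high-fat diet alone. The same array 2 was the highest of the butyrate arrays, and Slc11a2 fell by 2.87 ± 0.71 (adjusted p = 0.0146).

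Single arrays moved the size of both falls. Without array 2 with butyrate the differences were -4.74 for Cybrd1 and -3.81 for Slc11a2. Without mutant high-fat array 1, which had the highest level of both genes, Cybrd1 missed the threshold (-2.95, adjusted p = 0.0581). The Slc11a2 call was lost without that array or without mutant butyrate array 3, with an adjusted p of up to 0.12. All 3 probe sets of Slc11a2 fell, with differences of -2.87, -2.44 and -0.99 (adjusted p of at most 0.0111 over all probe sets).

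Slc40a1 stood at 10.08, 11.38 and 10.46 in mutants with butyrate, against 11.96 and 11.21 in mutants on the high-fat diet alone. Array 2 lay between the high-fat arrays, and the difference of -0.94 ± 0.32 did not pass (adjusted p = 0.0553). Without array 2 it was -1.31 and passed (adjusted p = 0.0023). Leaving out the other mutant arrays with or without butyrate moved it between -1.32 and -0.57.

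Tfrc stood at 10.87, 10.79 and 10.88 in mutants with butyrate, against 11.44 and 11.31 in mutants on the high-fat diet alone. The arrays did not overlap and varied little, and Tfrc fell by 0.53 ± 0.17 (1.45-fold, adjusted p = 0.0423). That call held in 5 of the 13 fits with 1 array left out. The other 2 probe sets of Tfrc fell too, with differences of -1.1 ± 0.27 and -1.17 ± 0.18 (adjusted p = 0.0117 and 0.00083 over all probe sets).

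Hfe stood at 7.07, 6.66 and 6.88 in mutants with butyrate, against 6.13 and 6.02 in mutants on the high-fat diet alone. Every array with butyrate was higher, and Hfe rose by 0.80 ± 0.20 (1.74-fold, adjusted p = 0.0163). With both Hfe probe sets averaged the difference was 0.48 and missed the threshold (adjusted p = 0.0654). The Hfe call was also lost without either mutant high-fat array and without mutant butyrate array 1. Heph, Fth1 and Hmox1 differed by 0.02, 0.03 and -0.36, and none passed.

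Of the 8 genes, 3 fell and 1 rose with butyrate, where 21.7% of all genes were called. The median difference was -0.45 over the 8 genes and 0.02 over all genes. This comparison and that of the high-fat with the normal diet share the 2 mutant high-fat arrays, so an array that is high there moves both. In wild type, Cybrd1 read 5.98 on the single array with butyrate, against 8.17 and 7.47 on the high-fat diet alone. Slc11a2 read 7.71 with butyrate, against 10.49 and 10.20 without it in wild type. Hfe read 7.10 with butyrate, against 6.72 and 6.48 without it in wild type. Cybrd1 and Slc11a2 were lower and Hfe higher on that array, which has no replicate, so this was not tested.

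Other genes moved beside them here too. Of 11 macrophage genes, 5 rose with butyrate in mutants, where 1597 of all 12393 genes rose. The mean level of the 11 was 7.63, 6.97 and 7.59 in mutants with butyrate, against 7.04 and 6.39 on the high-fat diet alone. These means overlapped, as mutant butyrate array 2 lay below mutant high-fat array 1. Array 2, the lowest of the 3 in macrophage genes, is the one that kept high Cybrd1 and Slc11a2. It also stood apart from arrays 1 and 3 in acinar pancreas genes (11.5, against 7.25 and 6.17). The duodenum position genes read 8.60 on array 2, against 7.88 and 8.02, and the ileum genes 3.04, against 3.63 and 3.84. In mutants the mean of the 9 enterocyte genes was 12.85, 12.49 and 12.82 with butyrate, against 13.05 and 13.14 without it. Array 2 had the lowest enterocyte mean of the 3. Of the 9 enterocyte genes Anpep, Rbp2 and Mttp fell, with differences of -1.57, -1.38 and -0.55, and of the 4 duodenum position genes Gata4 fell (-0.94), whereas Pdx1, Cck and Sct did not pass. The part of these shifts in the result was not tested.

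Genotype came next, with diet held fixed. Over the 9 arrays without butyrate, Cybrd1 was higher in mutants by 1.73 ± 0.41 (3.31-fold, 95% interval 0.82 to 2.64, adjusted p = 0.0415) and Tfrc by 0.66 ± 0.13 (1.58-fold, 95% interval 0.38 to 0.94, adjusted p = 0.0191). On the normal diet Cybrd1 read 6.21 to 6.32 in mutants, against 5.40 and 5.45 in wild type, and on the high-fat diet 11.44 and 9.76 in mutants, against 8.17 and 7.47 in wild type. Mutants were above wild type within each diet. Tfrc read 10.60, 11.14 and 11.20 in mutants, against 10.11 and 10.49 in wild type on the normal diet, and 11.44 and 11.31 in mutants, against 10.79 and 10.69 in wild type on the high-fat diet. Again no arrays overlapped within a diet.

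These 2 of 8 genes passed where 4.63% of all genes did (574), and the median difference was 0.27 over the 8 genes and 0.01 over all genes. The Cybrd1 call held in 3 of the 9 fits with 1 array left out (adjusted p up to 0.103) and the Tfrc call in 7 (up to 0.0507). The other 2 probe sets of Tfrc gave 0.67 and 0.34 and did not pass over all probe sets (adjusted p = 0.0855 and 0.323). Slc11a2 differed by 0.60 ± 0.29 (adjusted p = 0.309), Slc40a1 by 0.43 ± 0.28, Hfe by -0.28 ± 0.16, Fth1 by 0.11 ± 0.05, Heph by 0.03 ± 0.11 and Hmox1 by -0.2 ± 0.24.

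Over all 3 diets and 13 arrays none of the 8 genes passed, and 1.02% of all genes did (127). Cybrd1 gave 1.5 ± 0.50 (adjusted p = 0.146) and Tfrc 0.50 ± 0.12 (adjusted p = 0.0714), both with an unadjusted p under 0.05 in limma, as had 2040 of all genes. On the high-fat diet with butyrate Tfrc read 10.87, 10.79 and 10.88 in mutants, against 10.83 in wild type, so the genotypes overlapped there. Cybrd1 read 5.79, 8.72 and 5.93 in mutants, against 5.98 in wild type, and overlapped too.

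Within single diets no member passed either. On the normal diet 0.0242% of all genes were called (3 genes), and the 8 genes gave between -0.42 (Hmox1) and 0.85 (Cybrd1). On the high-fat diet 0.0403% were called (5 genes). There Cybrd1 was 6.88-fold higher in mutants (2.78 ± 0.80, adjusted p = 0.247), Slc40a1 2.43-fold (1.28 ± 0.35, adjusted p = 0.219) and Tfrc differed by 0.63 ± 0.18 (adjusted p = 0.247). With butyrate, where wild type is 1 array and is assumed to vary like the other groups, 0% of all genes were called by limma (749 genes had an unadjusted p under 0.05, none of them a member).

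Macrophage genes differed by genotype in the opposite direction. Over the 9 arrays 9 of 11 fell, where 296 of all 12393 genes did. The mean level of the 11 was 6.39 to 7.12 in mutants and 7.52 to 7.91 in wild type. Of 6 T cell genes, 3 fell. The enterocyte mean was 12.61 to 13.14 in mutants and 12.62 to 13.15 in wild type, and no enterocyte gene was called. Macrophages also express Slc40a1, Hmox1 and Tfrc. The part of these cells in the genotype differences was not tested. With the acinar mean as a term the Cybrd1 genotype difference was 1.69 and missed the threshold (adjusted p = 0.0552).

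The 6 groups can be put in order by level. For Cybrd1 the order was mutants on the high-fat diet (10.6 ± 1.18, SD, n = 2), wild type on the high-fat diet (7.82 ± 0.494, n = 2), mutants with butyrate (6.81 ± 1.65, n = 3), mutants on the normal diet (6.27 ± 0.0571, n = 3), the wild-type array with butyrate (5.98) and wild type on the normal diet (5.43 ± 0.0334, n = 2). Of these neighbours the butyrate mutants overlapped the group above and the groups below, and wild type on the normal diet lay under all other arrays. For Slc11a2 the order was mutants on the high-fat diet (11.52 ± 0.716), wild type on the high-fat diet (10.35 ± 0.204), mutants with butyrate (8.65 ± 1.65), the wild-type array with butyrate (7.71), mutants on the normal diet (7.30 ± 0.242) and wild type on the normal diet (7.19 ± 0.707), with the same n. The butyrate mutants again overlapped the groups on either side. Mutants and wild type on the normal diet overlapped each other.

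The order for Tfrc was mutants on the high-fat diet (11.38 ± 0.0917), mutants on the normal diet (10.98 ± 0.328), mutants with butyrate (10.85 ± 0.0506), the wild-type array with butyrate (10.83), wild type on the high-fat diet (10.74 ± 0.0720) and wild type on the normal diet (10.30 ± 0.271). Mutants on the high-fat diet stood above all other arrays and wild type on the normal diet below them, and the groups between were close together. Hfe was lowest in mutants on the high-fat diet (6.07 ± 0.0770) and next lowest in wild type on the high-fat diet (6.60 ± 0.169). The means of its other groups lay between 6.87 and 7.19, with overlapping arrays.

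Array by array, the 5 highest arrays of Cybrd1 were the 2 mutant and 2 wild-type high-fat arrays and mutant butyrate array 2. The same 5 were the highest of Slc11a2. Of these 5, the 5 highest of Slc40a1 held 3, those of Fth1 3, those of Tfrc, Heph and Hmox1 2 each, and those of Hfe none. As a measure of likeness over the 13 arrays, Pearson's r with Cybrd1 was 0.941 for Slc11a2, 0.796 for Slc40a1, 0.634 for Tfrc and -0.855 for Hfe. In ranking genes by r, symbols starting with Gm or LOC, ending in Rik, or formed as clone or accession codes were left out. The genes most like Cybrd1 by this measure were Myadm (0.966), Scarb1 (0.961) and Abhd6 (0.952), with Slc11a2 in place 5 among those kept. For Slc11a2 they were Tnfrsf22 (0.948), Ifngr2 (0.946) and Frmd8 (0.943), followed by Cybrd1. For Slc40a1 they were Degs2 (0.858), Gpr12 (0.847) and Bcl2l14 (0.836), and for Heph Zxdc (0.937), Ubqln1 (0.893) and Arg2 (0.891). The points share their diets, so these values only describe likeness.

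**Figure D3:**
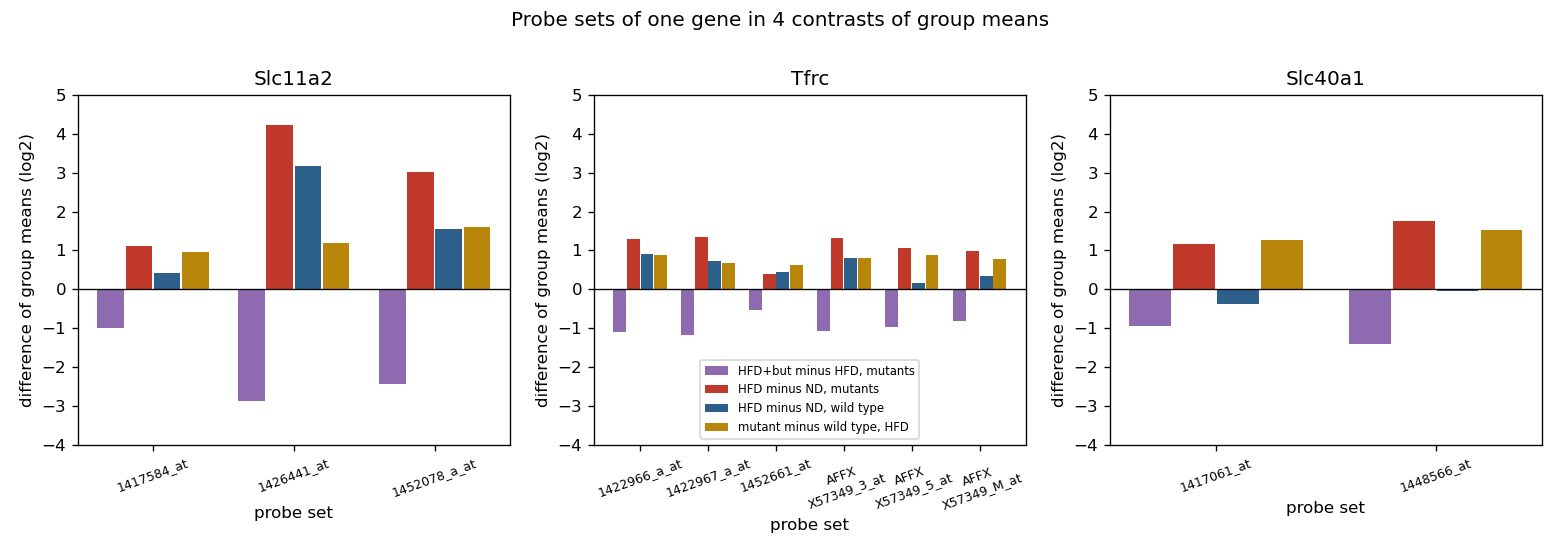
Difference of group means on the log2 scale (vertical axis) for every probe set of Slc11a2, Tfrc and Slc40a1 in 4 contrasts, each bar 1 contrast, with no error shown. Every probe set is higher on the high-fat diet in mutants and lower with butyrate, from 4.22 to 0.40 on the high-fat diet.

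The other genes of iron handling were read from 8 lists with 76 measured genes. In mutants on the high-fat diet 14 rose and 7 fell (27.6% of them, against 17.7% of all genes). In wild type 9 rose and 2 fell (14.5%, against 11.0%). With butyrate in mutants 7 rose and 8 fell (19.7%, against 21.7%).

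Of 9 genes of iron and oxygen sensing, 4 rose in mutants on the high-fat diet and 3 in wild type. Epas1, the hypoxia-inducible factor that acts on the uptake genes, read 8.41 and 7.84 in mutants on the high-fat diet, against 6.34, 6.21 and 6.25 in mutants on the normal diet. It read 7.63 and 7.05 in wild type on the high-fat diet, against 5.74 and 6.03 in wild type on the normal diet. In neither genotype did the arrays overlap, and Epas1 rose by 1.85 ± 0.24 in mutants (3.62-fold, adjusted p = 0.000749) and by 1.46 ± 0.26 in wild type (adjusted p = 0.00648). It fell by 1.74 ± 0.24 with butyrate in mutants (adjusted p = 0.000744), to 6.29, 6.78 and 6.08, and mutant butyrate array 2 was again the highest of those.

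Egln3, an oxygen-sensing prolyl hydroxylase and itself a target of hypoxia-inducible factors, rose by 0.98 in mutants and 1.13 in wild type on the high-fat diet and differed by -1.1 with butyrate. Vhl, whose protein marks these factors for degradation, rose by 0.71 and 0.54 on the high-fat diet in mutants and in wild type. The Vhl call held in all 20 alternative fits (listed under processing) in mutants, but in only 7 of 20 in wild type. Arnt, the partner subunit of hypoxia-inducible factors, rose by 0.84 in mutants on the high-fat diet and fell by 1.04 with butyrate. Of 11 other targets of hypoxia-inducible factors, 2 rose in mutants on the high-fat diet, P4ha1 (0.78) and Ldha (0.34), and none was called in wild type.

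Among heme genes Cpox, the oxidase of coproporphyrinogen, rose by 1.42 in mutants and 1.47 in wild type on the high-fat diet and fell by 2.32 ± 0.19 with butyrate (adjusted p = 3.49e-05). Of the 14 heme genes measured, 1 rose and 1 fell in mutants on the high-fat diet. Of 9 genes of iron-sulphur cluster assembly 4 fell in mutants on the high-fat diet: Nfs1 (-0.44), the scaffold gene Iscu (-0.53), Isca2 (-0.50) and Nfu1 (-0.47). The same 4 rose with butyrate, by 0.38 to 0.43, and Isca2 and Nfu1 also fell in wild type on the high-fat diet. Each of these shifts was under 1.6-fold.

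Smad6 and Smad7, inhibitors in the bone morphogenetic protein pathway that controls hepcidin in liver, rose on the high-fat diet, Smad7 by 1.05 ± 0.12 in mutants and 1.23 ± 0.13 in wild type. Both fell with butyrate. Ncoa4, the receptor that delivers ferritin for degradation, rose by 0.72 in mutants on the high-fat diet (adjusted p = 0.046). Of 8 other NRF2 targets, 3 rose in mutants on the high-fat diet (Gclm, Txnrd1 and Srxn1) and 2 in wild type (Gclm and Me1).

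By genotype 5 of the 76 genes were higher in mutants over the 9 arrays (6.6%, against 4.63% of all genes) and none lower. Car9, a carbonic anhydrase induced by hypoxia-inducible factors, read 10.95 and 10.81 in mutants, against 9.84 and 9.51 in wild type on the high-fat diet, and 10.41 to 10.53 in mutants, against 9.32 and 9.42 in wild type on the normal diet. It did not overlap within either diet and was higher by 1.15 ± 0.08 (adjusted p = 0.000138). Ireb2, which encodes an iron regulatory protein, was higher by 0.60 ± 0.12 (adjusted p = 0.0228), Egln3 by 0.79 ± 0.17 (adjusted p = 0.029), the metal transporter Slc39a8 by 0.63 and the glycolytic Pgk1 by 0.30. Over 13 arrays Car9 (0.94 ± 0.18, adjusted p = 0.0412) and Alas1, the first enzyme of heme synthesis (0.51 ± 0.11, adjusted p = 0.0477), passed (2.6% of the 76, against 1.02% of all genes). Over the 9 arrays the Car9 call held in all 15 alternative fits. There the call was lost in 11 of them for Slc39a8, 10 for Pgk1, 9 for Egln3 and 7 for Ireb2. Over 13 arrays it was lost in 13 of 19 alternative fits for Alas1 and in 9 for Car9. Within single diets and in the test of the difference between diets, none of the 76 passed.

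**Figure D4:**
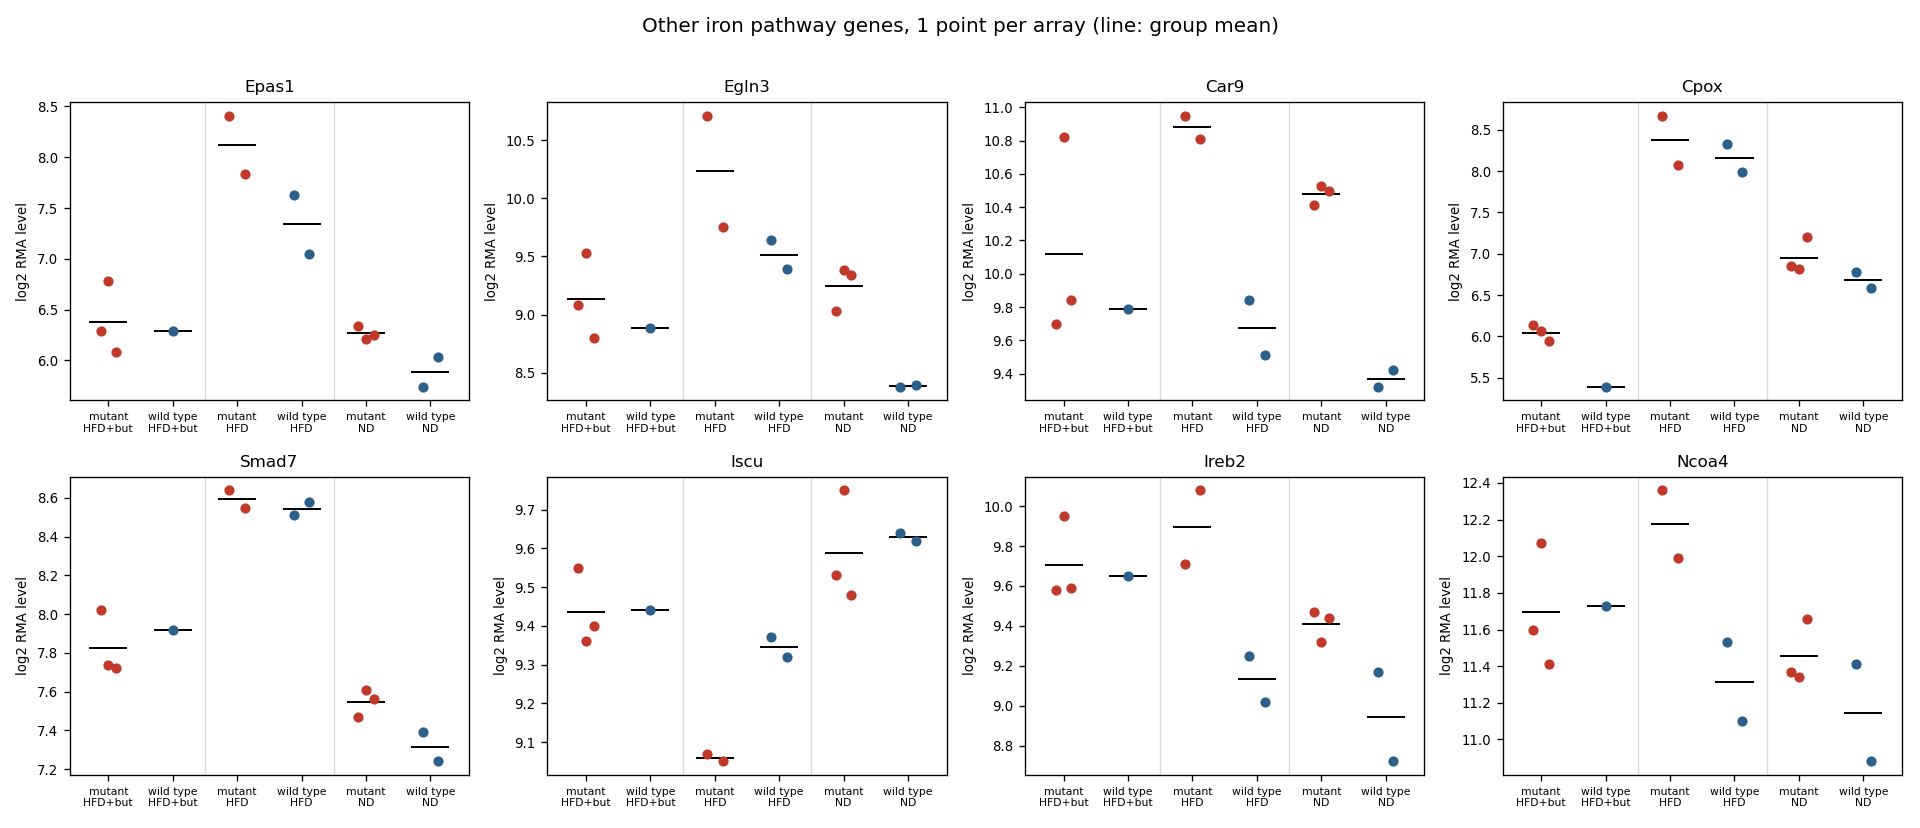
Log2 RMA level (vertical axis, a separate range per gene) of 8 further iron genes in the 6 groups, 1 point per array, mutant arrays in red, wild-type arrays in blue and a line at each group mean. Epas1 and Cpox are highest on the high-fat arrays, Iscu is lowest there, and Car9 separates mutants from wild type on the high-fat and the normal diet.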

How the data were processed

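Per the labels, 200 ng of total RNA per sample was amplified and labelled with biotin. The deposited values are log2 levels that the authors made with RMA in Affymetrix Expression Console 1.1, per the submitters' processing notes. RMA subtracts background, quantile-normalizes the arrays and summarises probes. No genome build is given in the sources used here. The labels name a whole-transcript labelling kit, while the probe set names belong to a 3′ array. Replicates are taken as separate mice only because the design text calls the samples mice; p-values otherwise reflect technical spread alone. The number of arrays limits precision.

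Of 22690 probe sets, 20380 had 1 gene symbol in the platform annotation, and 20351 of these matched RefSeq. Per gene, the probe set with the highest mean was tested. Tests were two-sided, in R 4.3.3 with limma 3.58.1 (lmFit, contrasts, eBayes with trend), adjusted by Benjamini-Hochberg at 0.05 over 12393 genes. Genotype comparisons held diet as a term (13 or 9 arrays), and the others used 6 group means on all 13 arrays. Every adjusted p is from limma. "Over all probe sets" means a second fit on every single-gene probe set. The script was tested on simulated data. Over the comparisons, a simulated log2 change of 2 was recovered in 92.4% to 100% of the changed genes. A change of 0.5 was recovered in 1.49% (difference between diets) to 73.1% (genotype over 3 diets). Small differences could therefore be missed, and a gene that did not pass is not shown to be unchanged. Named genes were the members, called genes of the lists and the 3 most like each of 4 members. The members and lists were chosen with earlier results of these data known. Alternatives were quantile normalization, averaged probe sets, a filter on dim probes, no trend, a fit on only the groups compared, a block for replicate number, the acinar mean as a term (added after seeing the data) and each array left out.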

Additional observations from a re-analysis of the deposited data

Results flagged for a closer look

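Slc40a1, the iron exporter, was singled out because its genotype difference ran in opposite directions on the high-fat and the normal diet. It read 11.96 and 11.21 in mutants, against 10.35 and 10.25 in wild type on the high-fat diet, and 10.26, 10.32 and 10.66 in mutants, against 10.67 and 10.71 in wild type on the normal diet. Every mutant array was above wild type on the high-fat diet and below it on the normal diet. That separation is the rule that singled the gene out, and the test below used the same values, so neither is further support. On the normal diet the nearest arrays read 10.66 and 10.67, and the genotype difference of -0.28 ± 0.32 did not pass (adjusted p = 0.748). A reversal of direction is thus not shown. The difference between the 2 genotype differences was 1.56 ± 0.47 (95% interval 0.53 to 2.60). It had an unadjusted p of 0.00667 in limma and did not pass over all genes (adjusted p = 0.915). The second Slc40a1 probe set gave 1.8 ± 0.71. On the normal diet it read 8.63, 8.61 and 9.18 in mutants, against 9.30 and 8.87 in wild type, and the genotypes overlapped there.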

How the results depend on the processing

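Every called difference of a member kept its direction under all alternatives. Of 11 such differences, 2 kept their call under all of them: Cybrd1 and Slc11a2 for the high-fat diet in mutants. Of 71 called differences of other named genes, 20 kept their call under all alternatives and none changed direction. Counts of members and of all genes past the threshold moved more. Between genotypes over 3 diets (0 and 127), 1 member passed after quantile normalization, and 58 genes passed without the intensity trend and 313 with the acinar mean as a term. Over the 9 arrays (2 and 574), 1 member passed without the trend and 1 with the acinar mean. On the normal diet (3 genes), fitting the compared groups alone called 36. On the high-fat diet (5 genes), leaving out dim genes left 3. For the high-fat diet in wild type (1 and 1368), 2 members passed with averaged probe sets, 2 in the compared groups alone, where 116 genes were called, and 0 with the acinar mean. For the difference between diets (1 gene), 2 genes passed after quantile normalization, 2 with averaged probe sets and 2 in the compared groups alone. The cause of these moves was not tested, apart from smaller fits having fewer arrays.

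Whether the replicate numbers pair the samples could not be decided. Deviations from the group mean were correlated between mutant and wild-type arrays of the same number. The values were -0.243 and -0.326 on the normal diet and 0.012 and 0.012 on the high-fat diet. A pair of arrays deviates from its own mean by equal and opposite amounts, so the high-fat value is the same value repeated. The wild-type deviations on the normal diet mirror each other too. So few separate values neither show nor exclude pairing. With the replicate number as a block, 1 member and 221 genes passed over 3 diets, 1 member and 244 genes over the 9 arrays, and 0 genes on the normal diet. Under that block the Heph difference over 3 diets was 0.03 and the Tfrc difference between diets 0.02. The blocked fits on all diets also left out the wild-type butyrate array, which has no number. Over 3 diets, leaving out that array alone gave 0.03 for Heph and 0.66 for Tfrc, against 0.63 for Tfrc with the block. The effect of the block and that of the missing array cannot be told apart in the blocked fits. No such fit was possible for genotype with butyrate, because the wild-type array has no number.

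With 1 array left out at a time, members past the threshold and all genes called ranged from 0 to 1 and 2 to 329 over 3 diets, 0 to 3 and 265 to 582 over the 9 arrays, 0 to 174 genes on the normal diet, and 0 to 2 and 3 to 105 on the high-fat diet. For the high-fat diet they ranged from 3 to 5 and 990 to 2579 in mutants and from 0 to 2 and 439 to 1522 in wild type, with butyrate from 0 to 4 and 1317 to 3085, and 1 to 10 genes were called for the difference between diets. The count of 2 genes was without wild-type high-fat array 1 and that of 329 without mutant butyrate array 1.

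Some differences that had not passed changed sign. With averaged probe sets, Hfe on the normal diet was 0.01, Tfrc by genotype with butyrate -0.18, Fth1 with butyrate -0.02 and Tfrc between diets 0.33. After quantile normalization, Heph with butyrate was -0.02 and Fth1 between diets -0.05. With the acinar mean, Heph was 0 over the 9 arrays and 0.04 for the diet in wild type, and on the normal diet Slc11a2 was -0.06 and Hfe 0.01. Leaving out 1 array gave these ranges by genotype: Heph -0.16 to 0.03 and Hmox1 -0.28 to 0.04 over 3 diets, and Heph -0.09 to 0.1 over the 9 arrays. On the normal diet they were -0.39 to 0.61 for Slc11a2 and -0.42 to 0.27 for Hfe, and on the high-fat diet -0.57 to 0.68 for Hmox1 and -0.09 to 0.43 for Heph. With butyrate they were -0.12 to 1.34 for Cybrd1, 0 to 1.53 for Slc11a2, -0.03 to 0.62 for Slc40a1, 0 to 0.04 for Tfrc and -0.16 to 0.07 for Fth1. For the high-fat diet, Hmox1 ranged from -0.18 to 1.07 and Heph from -0.06 to 0.46 in mutants, each called in 1 of 13 fits, and Heph from -0.14 to 0.02 and Hmox1 from -0.31 to 0.24 in wild type. For butyrate in mutants, Heph ranged from -0.24 to 0.29, Hmox1 from -0.99 to 0.27 (called in 1 fit) and Fth1 from -0.08 to 0.15. Between diets, Tfrc ranged from -0.24 to 0.15, Hmox1 from -0.15 to 1.1 and Heph from 0 to 0.52.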
